A study of Ovis aries with 12 samples.

Results

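Glycolysis and glycogen metabolism were followed in the longissimus dorsi, the main loin muscle, of callipyge and normal lambs at 10, 20 and 30 days of age. The module was a list of 35 genes: 16 for the steps of glycolysis, 11 for the making and breaking of glycogen, 5 for the control of fructose bisphosphate, 2 glucose transporters and the glycerol phosphate enzyme GPD1. A gene was a member where the array's annotation gave its symbol alone to a probe set, and the brightest such probe set stood for the gene. Of the 35 genes, 30 had a probe set, out of 9155 genes with one on the whole array. HK2, PHKA1, PHKB, PHKG1 and GYS1 had none and were not analysed here. ALDOC and GBE1 lay below the brightness limit, with mean levels of 4.73 and 5.21 against a limit of 5.25 on the log2 scale, and were not tested. The other 28 were tested.

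Glycolysis carries glucose to pyruvate in the cytoplasm, and fast-contracting muscle relies on it for short bursts of work. Phosphofructokinase sets much of its rate and answers to a small activator, a fructose bisphosphate, which the PFKFB enzymes make and remove. Muscle keeps its glucose store as glycogen, which glycogenin starts, glycogen synthase lengthens and glycogen phosphorylase breaks down, and phosphoglucomutase links that store to glycolysis in both directions. Callipyge is an inherited overgrowth of muscle in sheep that appears in the weeks after birth and is strongest in the loin and hindquarters.

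The labels give the callipyge lambs the genotype +/CLPG and the normal lambs the wild-type +/+. All 12 lambs nursed their dams until shortly before they were killed, and each gave 1 array of sheep RNA on bovine probes. Every combination of genotype and age held 2 lambs, which the labels call biological replicates. There were thus 6 callipyge and 6 normal lambs, 4 at each age, and different lambs at different ages. The muscle was taken whole, so fewer cells of a type and less RNA per cell cannot be told apart.

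Levels are given as log2 of the scaled intensity plus 16, and differences on the same scale, where 1 is a doubling for bright probe sets and an understatement for dim ones. The arrays' trimmed mean signals ran from 55.7 to 105.7 and differed between genotypes by -0.22 on the log2 scale (exact permutation within age, two-sided p = 0.120, smallest possible 0.00926). DLK1, a gene of the callipyge locus that served as a check of the labels, lay at 10.45 to 11.17 in the callipyge lambs and 7.67 to 9.05 in the normal lambs. Of 16 skeletal muscle markers 13 had a probe set, and limma called 0 between genotypes or between 10 and 30 days (2 and 3 at an unadjusted p under 0.05). Those between genotypes were MB, the myoglobin of oxidative fibres, at -0.61 (unadjusted p = 0.00559), and MYL3, a slow fibre myosin light chain, at -0.51 (unadjusted p = 0.0397). The 13 markers' summed scaled intensity was 88358 to 98634 in callipyge and 79721 to 100597 in normal muscle, lowest in normal 30 day replicate 1. Of 19 tested markers of liver, fat, connective tissue, vessels, immune cells, red cells and nerve 0 were called either (2 and 1 unadjusted). The 2 between genotypes were HBB and CA2 of the red cell list, whose summed level was 157 to 239 in callipyge and 197 to 315 in normal muscle; its part in the results was not tested. Split by fibre type after the values were seen, the 6 slow or oxidative markers (MYH7, TNNT1, TNNC1, MYL2, MYL3 and MB) lay below 0 between genotypes, with a median of -0.22. The 5 fast markers (TNNC2, TNNI2, TNNT3, MYH1 and ATP2A1) lay above it, with a median of 0.085, and turned to -0.14 unscaled, where the slow median was -0.44. The lowest limma adjusted p among the slow markers was 0.0236 unscaled, under the threshold, against 0.187 scaled. With quantile normalization 4 of the 5 fast markers lay above 0. Without both 30 day replicate 2 arrays 5 of the 6 slow markers lay below 0, with a median of -0.066. The arrays of callipyge and normal 30 day replicate 2 were already known to stand apart from the other lambs of their age. Their mean correlations with all other arrays were 0.961 and 0.959, against 0.960 to 0.966 for the rest. On this measure the callipyge array lay within the range of the rest and the normal array only just below it. Results are also given without these 2 arrays.

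The first comparison asked how callipyge muscle differed from normal muscle over the 3 ages. PFKM, PFKFB1 and PGM1 rose in callipyge muscle, by 1.36, 1.63 and 1.32 times. They are the muscle phosphofructokinase, an enzyme that sets its activator and the phosphoglucomutase between glycogen and glycolysis. Most other members lay slightly above 0 without passing the test, and none passed in the lower direction. Of the 28 tested members 3 were called higher and 0 lower at an adjusted p under 0.05, where 0.883% of all 12008 tested probe sets were called, 0.566% higher and 0.316% lower. Glycolytic probe sets are bright, with 12 of the 28 members among the brightest 200, and of the 631 probe sets with a mean of at least 10 the share called in either direction was 4.28%. The members' median difference was 0.18 against -0.01 over all tested probe sets, and 21 of 28 lay above 0 against 47.5%.

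PFKM was the clearest. In callipyge lambs its level was 12.10 and 12.05 at 10 days, 12.20 and 12.21 at 20 days, and 12.21 and 12.17 at 30 days. In normal lambs it was 11.57 and 11.55, then 11.62 and 11.78, then 11.88 and 11.90. Every callipyge lamb lay above every normal lamb, a pattern that 0.683% of tested probe sets had. PFKM rose by 0.44 ± 0.07 (SE, 6 against 6 lambs; limma adjusted p = 0.00891). A further PFKM probe set was also called, at 0.41 (adjusted p = 0.0335), and the remaining PFKM probe set was not, at 0.40 (adjusted p = 0.0933). The call of PFKM was kept with any 1 array left out and without both 30 day replicate 2 arrays (0.45, adjusted p = 0.0276).

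PFKFB1, whose enzyme makes and removes the activator of phosphofructokinase, was at 7.72 and 7.60, 7.43 and 7.59, and 7.58 and 7.15 in callipyge lambs of 10, 20 and 30 days. The normal lambs had 7.04 and 7.21, 6.40 and 6.63, and 7.06 and 6.53. Within each age both callipyge lambs were above both normal lambs, while across ages the groups overlapped slightly. PFKFB1 rose by 0.70 ± 0.13 (adjusted p = 0.0292).

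PGM1 was at 12.12 and 12.10, 12.11 and 12.19, and 12.03 and 11.93 in callipyge lambs. In normal lambs it was at 11.60 and 11.55, 11.71 and 11.82, and 11.86 and 11.54. The genotypes did not overlap at any age or across ages. PGM1 rose by 0.40 ± 0.08 (adjusted p = 0.0304), and its further probe set gave 0.39 (adjusted p = 0.0335). Without both 30 day replicate 2 arrays PGM1 was no longer called (0.36, adjusted p = 0.0635), nor was PFKFB1 (0.54, adjusted p = 0.128). With 1 array left out PGM1 and PFKFB1 each lost the call in 10 of 12 cases, with adjusted p up to 0.107 and 0.0966. With all dim probe sets kept, or with the arrays left unscaled, 0 members were called, and PFKM had 0.44 (adjusted p = 0.0526) and 0.22 (adjusted p = 0.450).

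**Figure D1:**
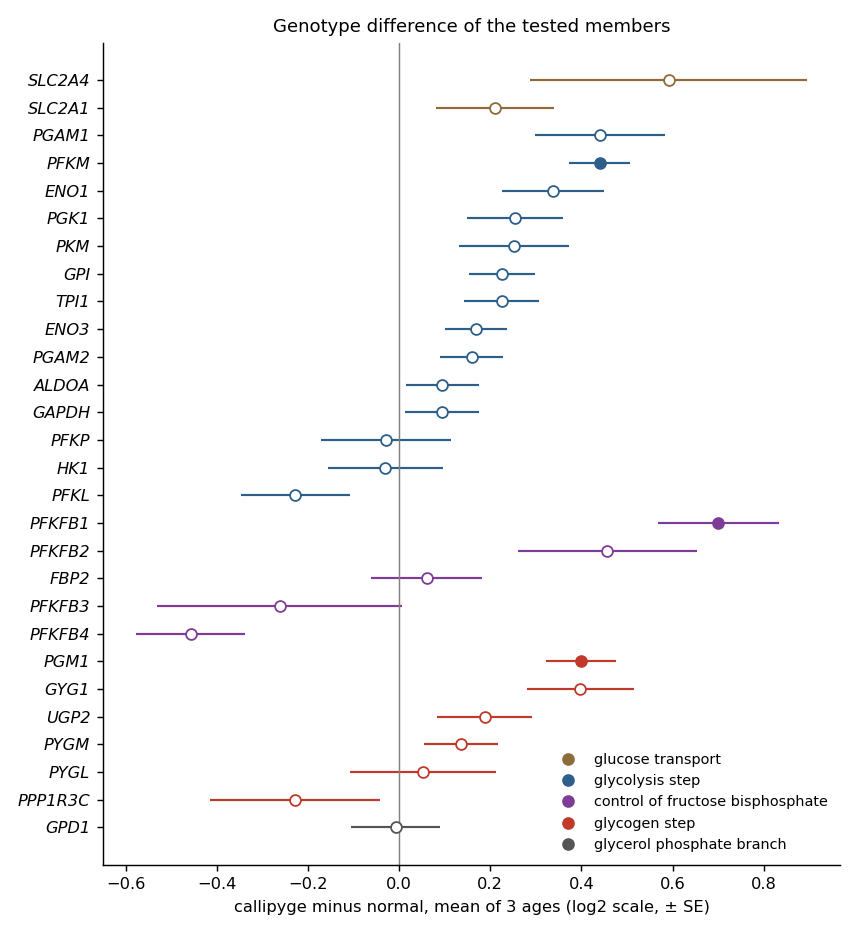
Callipyge minus normal difference (log2 scale, mean of the 3 ages) of each of the 28 tested members, grouped by role, with bars of 1 SE and filled points where the limma adjusted p was under 0.05. PFKM, PFKFB1 and PGM1 are filled, and 21 of 28 points lie to the right of 0.

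Steps were counted as genes here and below, so forms of the same enzyme count separately. The glycogen steps include the regulator PPP1R3C. Along glycolysis 11 of 14 tested steps lay above 0, with a median of 0.20, and 1 was called. PGAM1 and ENO1, the phosphoglycerate mutase and enolase found in most tissues, had differences of 0.44 ± 0.14 (adjusted p = 0.220) and 0.34 ± 0.11 (adjusted p = 0.233). ENO1 lay at 9.94 to 10.41 in callipyge and 9.55 to 10.00 in normal lambs. For PGK1, the phosphoglycerate kinase, the difference was 0.25 ± 0.11, and for the pyruvate kinase PKM 0.25 ± 0.12. TPI1, the triosephosphate isomerase, had 0.23 ± 0.08 (adjusted p = 0.288). ALDOA and GAPDH, the muscle aldolase and the dehydrogenase often used as a reference gene, both had 0.09. HK1, a hexokinase of most tissues, and PFKP, the platelet phosphofructokinase, both had -0.03, and the liver phosphofructokinase PFKL -0.23 ± 0.12 (adjusted p = 0.491). None of these passed the test.

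GPI and ENO3 did not overlap between genotypes within any age. GPI, the glucose phosphate isomerase that makes the substrate of phosphofructokinase, was at 12.80 and 12.96, 12.70 and 12.61, and 12.69 and 12.46 in callipyge lambs, against 12.67 and 12.70, 12.46 and 12.60, and 12.30 and 12.15 in normal lambs. Both callipyge lambs exceeded both normal lambs at each age, by as little as 0.016 at 20 days. The difference was 0.23 ± 0.07 (adjusted p = 0.214). ENO3, the muscle enolase, showed the same order with a smallest gap of 0.011, and a difference of 0.17 ± 0.07 (adjusted p = 0.340).

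Of the 5 genes that control fructose bisphosphate, PFKFB1 rose and the other 4 did not pass. PFKFB4 lay lowest, at -0.46 ± 0.12 (adjusted p = 0.112). Its levels in callipyge lambs were 7.03 and 7.27, 7.01 and 7.26, and 7.56 and 7.25, against 7.16 and 7.43, 7.58 and 7.71, and 8.02 and 8.24 in normal lambs. At 20 and 30 days both callipyge lambs were lower, while at 10 days the genotypes overlapped. PFKFB2, the form typical of heart, had 0.46 ± 0.20 (adjusted p = 0.378) on a dim probe set with a mean level of 5.46. Its further probe sets went the other way, at -0.12 and -0.52. Both lay below the brightness limit and were not tested, so the sign for PFKFB2 is uncertain. PFKFB3, the inducible form, had -0.26 ± 0.27, and its next probe set -0.44 (adjusted p = 0.475). FBP2, the muscle fructose bisphosphatase that runs the phosphofructokinase step backwards, had 0.06.

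Of the glycogen steps 5 of 6 lay above 0, with a median of 0.16, and PGM1 was the 1 called. GYG1, the glycogenin that primes a new glycogen particle, was at 11.11 and 11.37, 11.06 and 11.14, and 10.90 and 11.41 in callipyge lambs and at 10.27 and 10.83, 10.95 and 10.87, and 10.90 and 10.78 in normal lambs. Callipyge lambs were above both normals of their age throughout, with a gap of only 0.0030 at 30 days. Its difference of 0.40 ± 0.12 did not pass (adjusted p = 0.176). UGP2, which makes the activated glucose for glycogen synthesis, had 0.19 ± 0.10, the muscle phosphorylase PYGM 0.14 ± 0.08 and the liver phosphorylase PYGL 0.05. PPP1R3C, a subunit that brings a phosphatase to glycogen and so favours storage, had -0.23 ± 0.19 (adjusted p = 0.700), and its further probe sets gave -0.21 and -0.25.

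The insulin-responsive transporter SLC2A4 (GLUT4) had 0.59 ± 0.30 (adjusted p = 0.478). It lay between 5.02 and 6.70 in callipyge and between 4.70 and 6.24 in normal lambs, with wide overlap. The transporter SLC2A1 (GLUT1), present in most cells, had 0.21 ± 0.13 (adjusted p = 0.566), with 5.70 and 5.78 in callipyge against 5.00 and 5.23 in normal lambs at 30 days and overlap at the other ages. Both probe sets were dim, near the level where the added 16 compresses a difference. GPD1, which diverts a glycolytic intermediate to glycerol phosphate, had -0.01 ± 0.10.

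In all, PFKM, PFKFB1, PGM1, GYG1, GPI and ENO3 were the 6 of 28 members with every callipyge lamb above both normal lambs of its age, a pattern of 1.84% of tested probe sets. The opposite pattern was found in 0 members and 1.47% of probe sets. Apart from PFKFB1 the 6 are bright, with mean levels from 10.97 (GYG1) to 13.07 (ENO3). The shares of these patterns, and of the complete separation of PFKM, were not taken among bright probe sets alone. With the arrays left unscaled the median of all probe sets between genotypes was -0.19, and the glycolysis and glycogen medians lay above it by 0.16 and 0.13.

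**Figure D2:**
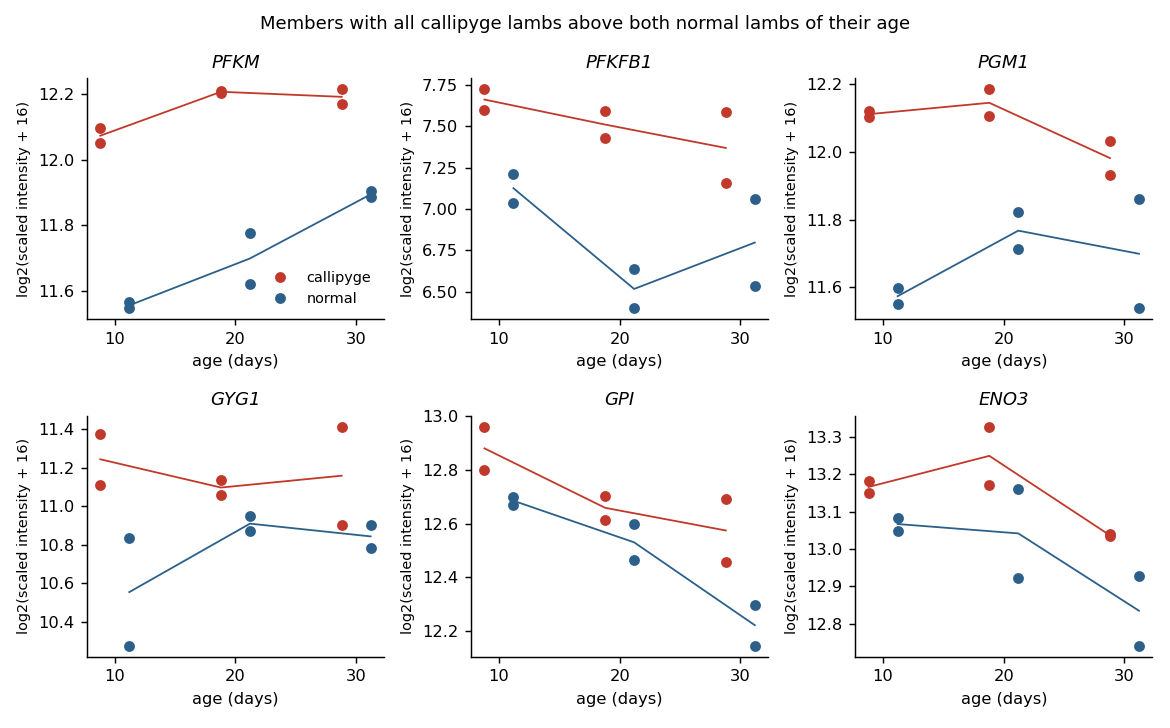
Levels (log2 of scaled intensity plus 16) of PFKM, PFKFB1, PGM1, GYG1, GPI and ENO3 by age in days, 1 point per lamb and lines through the mean of 2 lambs. At each age the callipyge points lie above the normal points, with the narrowest gap, 0.0030, for GYG1 at 30 days.

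Several steps have a form typical of mature muscle and a form of other tissues, so their balance was compared for 5 gene pairs, chosen with the rise of PFKM already known. The pairs with PFKM reuse its values, so they are given as a description with no test, and the other 3 pairs were tested. The log2 ratio of PFKM to PFKL was 4.81 to 5.49 in callipyge lambs and 4.32 to 4.66 in normal lambs, without overlap. It was higher in callipyge muscle by 0.67, in 6 of 6 lambs against both normals of their age, where PFKM alone differed by 0.44 and PFKL by -0.23. The ratio of PFKM to PFKP, the platelet form, was higher by 0.47, in 5 of 6 lambs, with PFKP itself at -0.03. The height of a ratio depends on the probes, so it was compared only between lambs.

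For phosphoglycerate mutase the ratio of the muscle form PGAM2 to PGAM1 differed by -0.28, with 3.16 to 4.28 in callipyge and 3.67 to 4.69 in normal lambs (exact permutation within age, two-sided p = 0.278, adjusted over 3 pairs 0.417). For enolase the ratio of ENO3 to ENO1 differed by -0.17 (exact permutation p = 0.259, adjusted 0.417). In both the genotypes overlapped widely. For phosphorylase the ratio of PYGM to PYGL differed by 0.08 (exact permutation p = 0.593, adjusted 0.593).

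**Figure D3:**
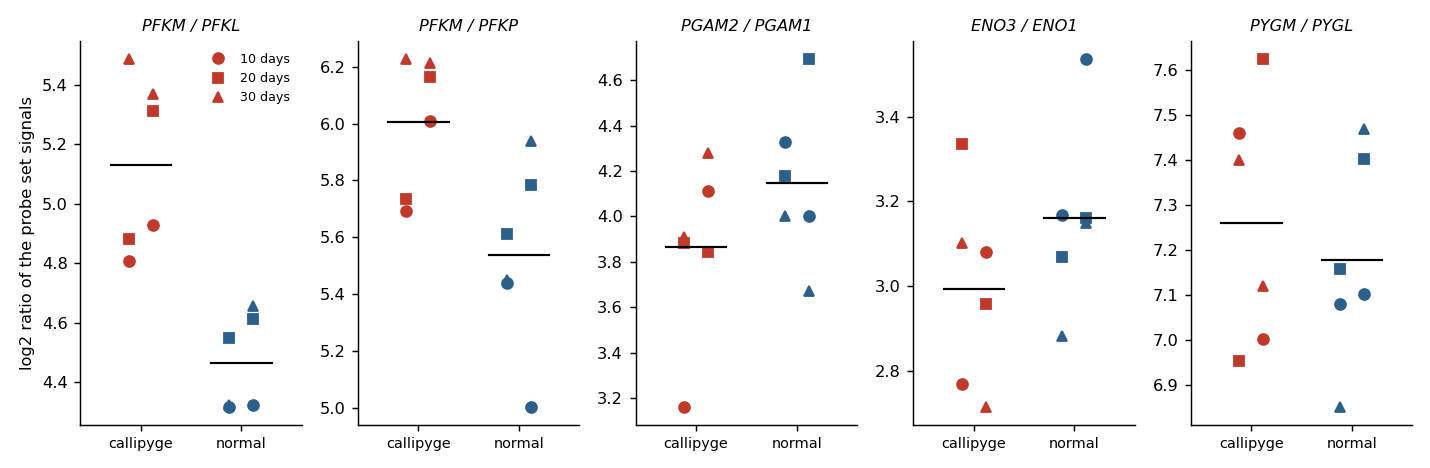
Log2 ratio of the muscle form to the other form of 5 enzymes in 6 callipyge and 6 normal lambs, marked by age, with a bar at each group mean and a separate axis for each pair. The PFKM to PFKL ratios of the genotypes do not overlap, with 4.81 the lowest in callipyge and 4.66 the highest in normal muscle.

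The genotype difference was then taken at each age and in each branch of the pathway. With 2 lambs a group 0 of 28 members were called at 10, 20 or 30 days, where 0.0666%, 0.0333% and 0.05% of all probe sets were called. At an unadjusted p under 0.05, 6 members were higher and 0 lower at 10 days, 5 and 1 at 20 days, and 7 and 2 at 30 days, where 8.82%, 6.15% and 7.6% of all probe sets passed in either direction. The members' medians were 0.08, 0.20 and 0.26 at the 3 ages. The interaction of genotype and age gave 0 called members (limma, background 0%). On the members' brightest probe sets 0 had an unadjusted p under 0.05, against 4.75% of all probe sets.

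PFKM differed by 0.52 ± 0.12 at 10 days, 0.51 ± 0.12 at 20 days and 0.30 ± 0.12 at 30 days. The normal lambs came closer with age, from a mean of 11.56 to 11.89, while the callipyge lambs lay at 12.07 and 12.19. That narrowing did not pass the interaction test (unadjusted p = 0.351, adjusted 0.992). PGM1 differed by 0.54, 0.38 and 0.28 ± 0.13 and PFKFB1 by 0.54, 0.99 and 0.57 ± 0.23. GYG1 differed by 0.69 ± 0.20 at 10 days, with normal replicate 1 of that age far below the other normal lambs, and by 0.19 and 0.32 later.

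Other members had their widest differences late. PFKFB4 had -0.14, -0.51 and -0.72 ± 0.21, and PFKL had -0.03, -0.01 and -0.64 ± 0.21, where normal 30 day replicate 1 was the highest of all lambs at 7.56. TPI1 went from 0.02 to 0.39 ± 0.14 and PGAM2 from -0.0011 to 0.33 ± 0.12. PPP1R3C differed in sign between ages, with -0.59, -0.54 and 0.45 ± 0.32, the smallest interaction p among the members' brightest probe sets (unadjusted 0.0709, adjusted 0.992). Its further probe sets had -0.39, -0.36 and 0.12 (interaction unadjusted p = 0.393) and -0.56, -0.73 and 0.55 (interaction unadjusted p = 0.0301, adjusted 0.992). On the brightest PPP1R3C probe set callipyge lambs had 7.99 and 9.06, 8.29 and 8.56, and 8.50 and 9.11. Normal lambs had 9.06 and 9.17, 8.85 and 9.09, and 8.67 and 8.05. Callipyge lambs were thus lower at 20 days, while the genotypes overlapped at 30 days.

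Glycolysis and glycogen steps were set side by side. The 14 glycolysis steps had median genotype differences of 0.04, 0.22 and 0.14 at 10, 20 and 30 days, and the 6 glycogen steps 0.17, 0.23 and 0.26. Averaged over ages the glycogen median was lower by 0.04, and the 2 branches overlapped almost fully. Leaving out each array moved that gap between -0.11 and 0.04. PGM1 serves both branches, and moving it out of the glycogen steps gave a glycogen median of 0.14. These medians are descriptions of few genes measured in the same lambs and carry no test.

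**Figure D4:**
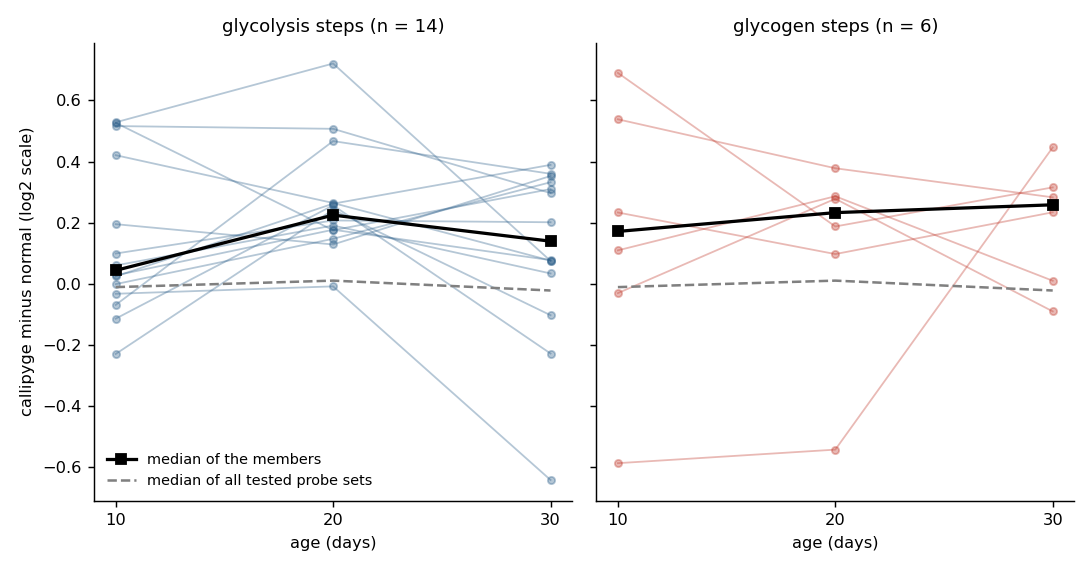
Callipyge minus normal difference (log2 scale) at 10, 20 and 30 days for each of 14 glycolysis steps and 6 glycogen steps, counted as genes, with the median of each branch in black and of all tested probe sets dashed. Both medians lie above the dashed line at each age, and the lowest glycogen line at 10 and 20 days is PPP1R3C.

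The next question was what changed with age over both genotypes. GPI was called lower at 30 than at 10 days, a call that most alternative settings ended. Most glycolysis steps lay lower at 30 days than before without passing the test. The 3 comparisons between ages share lambs, so their values are given side by side. From 10 to 20 days limma called 0 members (background 0%; 1 higher and 1 lower at an unadjusted p under 0.05, against 8.42% of all probe sets), and from 20 to 30 days 0 (background 0.00833%; 2 higher and 5 lower unadjusted, against 8.99%). From 10 to 30 days 1 member was called lower and 0 higher, where 1.83% of all probe sets were called, 1.26% lower and 0.575% higher, and 13.8% of those with a mean of at least 10. GPI is itself one of these bright probe sets, so the 1 call is not read as a result about the members as a set.

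GPI averaged 12.78 at 10 days, 12.59 at 20 days and 12.40 at 30 days, with 4 lambs each. It fell by 0.38 ± 0.09 from 10 to 30 days (adjusted p = 0.0467), with a lower mean in both genotypes, while callipyge 30 day replicate 1 at 12.69 still lay above normal 10 day replicate 1 at 12.67. The call was lost in 10 of the 12 cases with 1 array left out (adjusted p up to 0.170), without both 30 day replicate 2 arrays (-0.29, adjusted p = 0.191), with quantile normalization (-0.19, adjusted p = 0.274) and unscaled (-0.08, adjusted p = 0.807).

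From 20 to 30 days 23 of 28 members lay below 0, among them 13 of 14 glycolysis steps and 6 of 6 glycogen steps, where 54% of all probe sets lay above 0. The brightest probe sets of the 6346 tested named genes, picked as for members, leaned downward, with 3036 above and 3310 below 0. Of these 458 were lower and 192 higher at an unadjusted limma p under 0.05. PGAM2 had 12.86 to 13.14 at 20 days and 12.40 to 12.81 at 30 days, without overlap, as in 2.73% of probe sets, and a difference of -0.42 ± 0.08 (adjusted p = 0.110). Its lowest 20 day lamb, normal replicate 1, was also the array with the widest 3' to 5' gap in the GAPDH control probes, a sign of RNA quality (0.53 against 0.24 to 0.37 on the other arrays, log2 scale); without it the PGAM2 difference was -0.48 (adjusted p = 0.169). HK1, which traps glucose in the cell, had 7.65 to 8.05 at 10 days and 7.16 to 7.52 at 30 days, a difference of -0.45 ± 0.15 (adjusted p = 0.164). Such a separation of the 4 older lambs below the 4 younger was seen in 4.31% of probe sets from 10 to 30 days. UGP2 was highest at 20 days, with 11.91 to 12.09 against 11.54 to 11.82 at 10 days, a separation seen in 2.17% of probe sets and a difference of 0.37 ± 0.13 (adjusted p = 0.463), and of -0.34 ± 0.13 from 20 to 30 days (adjusted p = 0.436).

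PFKFB3 and PFKFB4 lay higher at 30 days. PFKFB3 had 8.04 and 7.71, 7.18 and 7.21, and 9.30 and 9.33 in callipyge lambs and 8.85 and 7.96, 7.92 and 7.73, and 7.95 and 9.94 in normal lambs. Of the 4 lambs of 30 days 3 lay at 9.30 or above, and normal replicate 1 lay at 7.95, close to the 20 day lambs. All 4 were above all 4 lambs of 20 days, as in 2.24% of probe sets. The difference from 20 to 30 days was 1.62 ± 0.33, or 3.07 times, the widest upward difference of all tested probe sets, but did not pass (adjusted p = 0.110). Without normal 30 day replicate 1 it was 2.12 (adjusted p = 0.00295), and without both 30 day replicate 2 arrays 1.11 (adjusted p = 0.179). Its next probe set, much dimmer, gave 0.21 ± 0.28 over the same ages.

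PFKFB4 had 0.55 ± 0.15 from 10 to 30 days (adjusted p = 0.0834). Its normal lambs went from 7.16 and 7.43 to 8.02 and 8.24, and its callipyge lambs from 7.03 and 7.27 to 7.56 and 7.25. PFKM had 0.23 ± 0.08 over these ages (adjusted p = 0.186), the only glycolysis step with an unadjusted p under 0.05 in the upward direction, and passed with quantile normalization (0.43, adjusted p = 0.0218). Over 10 to 30 days the glycolysis median was -0.19, with 12 of 14 below 0, and the glycogen median -0.01, with 4 of 6 below 0. All tested probe sets had a median of 0.002. The brightest probe sets of named genes leaned downward, with a median of -0.026 and 3444 of 6346 below 0. The glycogen median was higher than the glycolysis median by 0.17, and by 0.18 unscaled. Leaving out each array moved that gap between 0.10 and 0.21, and it was 0.08 without both 30 day replicate 2 arrays.

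**Figure D5:**
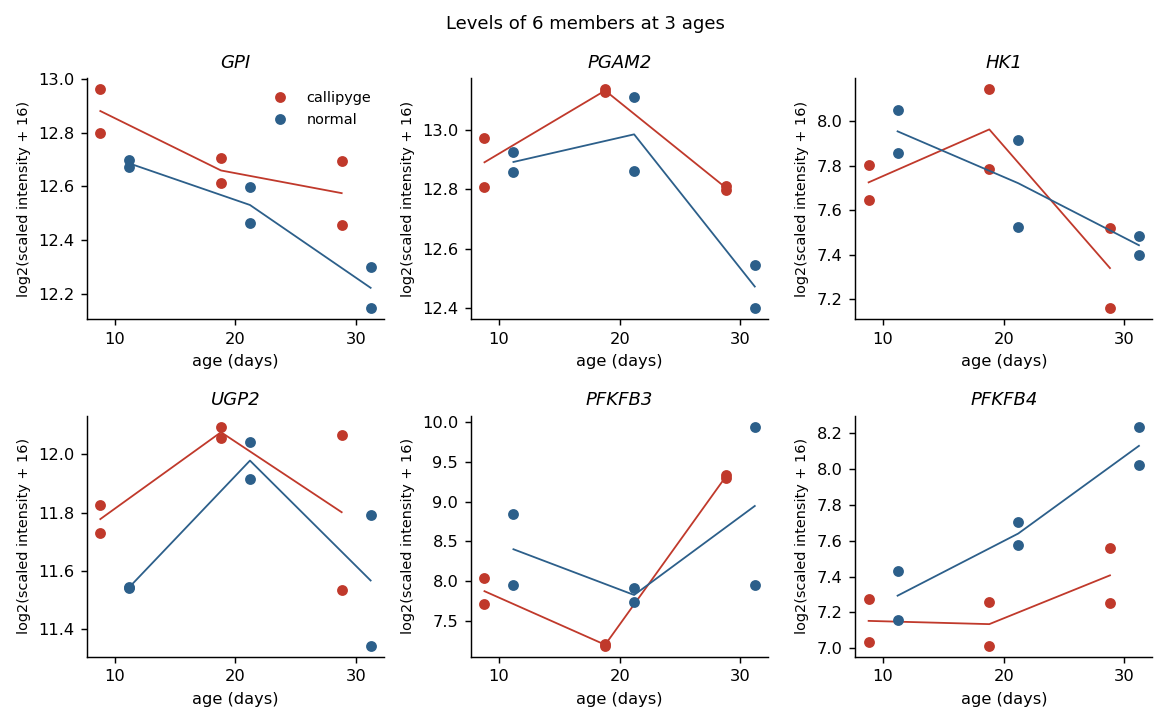
Levels (log2 of scaled intensity plus 16) of GPI, PGAM2, HK1, UGP2, PFKFB3 and PFKFB4 by age in days, 1 point per lamb and lines through the mean of 2 lambs. The mean of GPI is lower at 30 than at 10 days in both genotypes, and for PFKFB3 3 of the 4 lambs of 30 days lie at 9.30 or above while normal replicate 1 lies at 7.95.

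The genes around the module were read from a list of 59 for glucose, pyruvate, glycogen and pentose phosphate handling, of which 40 had a probe set and 31 were tested. Between genotypes 1 was called higher and 1 lower, where 0.566% and 0.316% of all probe sets were. SLC16A3, the transporter that carries lactate out of fast muscle fibres, was at 9.90 and 10.35, 10.08 and 9.83, and 9.68 and 9.27 in callipyge lambs and at 8.68 and 8.67, 9.54 and 9.70, and 8.93 and 8.89 in normal lambs. All callipyge lambs were above both normals of their age, and most widely so at 10 days. SLC16A3 rose by 0.78 ± 0.11 (adjusted p = 0.00734), and at 10 days alone by 1.45 ± 0.20 (adjusted p = 0.0252). The difference between ages was not called (interaction unadjusted p = 0.00389, adjusted 0.952), and its dimmer probe sets, each at 0.47, did not pass (adjusted p = 0.123 and 0.0940). The call was kept without both 30 day replicate 2 arrays (0.84, adjusted p = 0.0193) and lost unscaled (0.56, adjusted p = 0.126).

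LDHB, the lactate dehydrogenase form of heart and slow fibres, fell by 0.89 ± 0.16 (adjusted p = 0.020). The part of the slow and fast fibre markers in the values of LDHB, SLC16A3 and PFKM was not tested. It lay at 7.71 to 8.49 in callipyge and 8.42 to 9.79 in normal lambs, and the 2 ranges overlapped only through the 30 day lambs. Its call was lost without both 30 day replicate 2 arrays (-0.80, adjusted p = 0.0634). It was also lost without callipyge 10 day or 20 day replicate 2, normal 10 day replicate 2 or normal 20 day replicate 1 (adjusted p up to 0.0714). LDHA, the form of fast muscle, had 0.16 (adjusted p = 0.362), and its further probe sets differed in sign, with 0.16 (adjusted p = 0.676) and -0.28 (adjusted p = 0.687). GSK3B, the kinase that holds glycogen synthase inactive, was higher in 6 of 6 callipyge lambs than in both normals of their age, by 0.47 (adjusted p = 0.0940). From 10 to 30 days limma called 0 of the 31 (background 1.83%; 2 higher and 6 lower unadjusted, against 16.4%), with PDHB, a subunit of pyruvate dehydrogenase, closest at -0.54 (adjusted p = 0.0641).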

How the data were processed

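Muscle RNA of 12 lambs was read on Affymetrix bovine arrays. The authors deposited 1 linear intensity for each probe set and array, from MAS5 in GCOS, per the submitters' processing notes; versions and scaling target are not given in the sources used here. The 112 control probe sets were left out. Because the arrays' trimmed means (2% off each end) differed by a ratio of 1.90, above the limit of 1.5, each was scaled to their mean of 79.2, and log2 of the value plus 16 was taken. Probe sets below the median brightness of 5.25 were left out, leaving 12008. limma 3.58.1 in R 4.3.3 fitted a mean for each of 6 groups with a variance trend (6 residual and 6.93 prior degrees of freedom), with Benjamini-Hochberg adjustment over all tested probe sets and a threshold of 0.05. Gene names are from the array annotation, which can be old. The number of arrays limits the precision. Sheep RNA on cattle probes can dim single probe sets, so levels were not read as relative amounts of RNA between genes. Brightness served only to pick, filter, rank and group probe sets.

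The members, lists and tests were chosen with earlier results of these data known. Lamb by lamb values are given for called members, for those with the smallest p of each role and for called genes of the wider list; others, among them members with values that stood out by age, were chosen after their values were seen. Alternatives were other pseudocounts, filters, thresholds, normalizations, variance models, probe sets and step assignments, a replicate block and left-out arrays. For the enzyme forms and the fibre markers, unscaled values and left-out arrays were added after seeing the data. Exact permutations ran in python 3.11.15, and plots in matplotlib 3.10.9.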

Additional observations from a re-analysis of the deposited data

Results flagged for a closer look

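Among 140 sets of 4 or 6 lambs (each tested member within a genotype or an age), 10 had a lamb far from the others by Dixon's criterion, where chance marks about 1 in 20, or 7. GYG1 in normal 10 day replicate 1 was at 10.27, with the nearest normal lamb at 10.78. PFKL in normal 30 day replicate 1 was at 7.56, above the nearest normal lamb at 7.25. PFKP was high in callipyge 20 day replicate 1 (6.47, nearest lamb of that age 6.05) and in normal 30 day replicate 1 (6.43, the highest of its age). PGAM2 in normal 20 day replicate 1 was at 12.86, with the other 20 day lambs at 13.11 or above. PPP1R3C in callipyge 10 day replicate 1 was at 7.99, against 9.06 for the nearest lamb of that age. PYGL in callipyge 20 day replicate 1 was at 6.29, against 5.64. SLC2A1 in callipyge 10 day replicate 2 was at 6.14, with the nearest callipyge lamb at 5.78, and in normal 20 day replicate 2 at 5.81, with the nearest lamb of that age at 5.64. TPI1 in callipyge 10 day replicate 1 was at 12.44, below the nearest callipyge lamb at 12.71.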

How the results depend on the processing

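With 2 lambs a group, calls near the threshold moved with single choices. The count of members called between genotypes, 3 in the reported analysis, was 0 with no brightness filter, 0 unscaled, 1 with ordinary least squares, 1 without both 30 day replicate 2 arrays and 1 to 3 with each array left out. From 10 to 30 days the count of 1 became 2 at a threshold of 0.10 and with a filter at the 75th percentile, 0 with a pseudocount of 1, no filter, median centring, array weights, ordinary least squares or without both arrays, and 0 to 2 with each array left out. From 20 to 30 days 0 became 1 unscaled (PFKFB3) and 0 to 1 with each array left out. For the wider list, 2 called between genotypes became 1 unscaled, 0 with ordinary least squares, 1 with the next brightest probe set, 1 without both arrays and 1 to 2 with each array left out. Over 10 to 30 days 0 became 1 at a threshold of 0.10, 1 with a filter at the 75th percentile, 1 unscaled and 0 to 2 with each array left out. Replicate numbers did not pair the lambs in general (correlations of deviations -0.06 to 0.11 over 15 pairs of groups, 1 above 0.1). The 1 above 0.1 was between the callipyge and normal lambs of 30 days, the groups of the 2 arrays known to stand apart. The replicate block gave 3 members called between genotypes and 0 from 10 to 30 days, with GPI at an adjusted p of 0.0512, and changed no other call. The cause of these losses was not tested.

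Unscaled, the medians were -0.062 (glycogen) and -0.027 (glycolysis) between genotypes and 0.289 and 0.104 from 10 to 30 days, where all probe sets moved to -0.19 and 0.24. With quantile normalization the 10 to 30 day medians were 0.177 and -0.063. With each array left out the glycolysis median over these ages ran from -0.21 to -0.13 and the glycogen median from -0.060 to 0.014. Unscaled genotype differences changed sign for ALDOA (-0.13), GAPDH (-0.13), PGAM2 (-0.064), ENO3 (-0.055), FBP2 (-0.16), PYGM (-0.089), PYGL (-0.12) and UGP2 (-0.035), and 10 to 30 day differences for PGAM2 (0.051) and ENO3 (0.12). The sign also changed for GPD1 with quantile normalization (0.035), and with the next brightest probe set for PYGL (-0.17) and for PFKFB3 from 10 to 30 days (-0.047). Without both 30 day replicate 2 arrays it changed for HK1 (0.044), PFKFB3 (0.066) and GPD1 (0.087). With each array left out, genotype differences crossed 0 for HK1 (-0.095 to 0.035), PFKP (-0.107 to 0.049), PFKFB3 (-0.594 to 0.071), FBP2 (-0.087 to 0.208), PYGL (-0.073 to 0.177), GPD1 (-0.073 to 0.058) and the ratio of PYGM to PYGL (-0.029 to 0.195). Of the single gene differences recomputed, 34 changed sign, 58 lost and 7 gained a call and 1012 did neither. All 58 losses fell on the few differences called in the reported analysis. These were PFKM, PFKFB1, PGM1, SLC16A3 and LDHB between genotypes and GPI from 10 to 30 days. Most of the 1012 were differences not called in the reported analysis, so that count does not measure how stable the calls were.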
